A study of Mus musculus with 40 samples.

Results

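The comparison is the RNA bound to astrocyte ribosomes against the RNA of the tissue the ribosomes came from, in the striatum of 4 mice. It rests on 8 of the 40 libraries of the series, a RiboTag immunoprecipitate (IP) and an input from each mouse, joined by the animal identifier in the labels. Its members are all genes that passed a filter on low counts, which were 15476 of the 24060 gene symbols counted.

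The study asked which genes and proteins astrocytes and neurons of the mouse striatum express, and what the postsynaptic scaffold protein SAPAP3 (gene *Dlgap3*) does in each. RiboTag uses RPL22, a protein of the large ribosomal subunit, with a haemagglutinin (HA) tag. An adeno-associated virus (AAV) carries the tagged gene into the striatum, and anti-HA beads then pull tagged ribosomes and their RNA out of the tissue lysate. The input was taken from the same lysate before the pull-down and holds RNA of every cell type. All 8 libraries come from C57/BL6NTac mice of the group called Control in the labels, which list no treatment other than the RiboTag AAV. The labels name the 2 viruses used in the series, gfaABC1D Rpl22-HA for astrocytes and hSyn1 Rpl22-HA for neurons, but do not say which was given to these 4 mice. The study's description makes these the mice with the astrocyte virus, which the marker genes below check. The GfaABC1D promoter is a short form of the human *GFAP* promoter. What is called astrocyte RNA here is the RNA pulled down with ribosomes tagged in cells in which this promoter was active. Whether the IP also held RNA of untagged cells was not tested. The labels give neither age nor sex. For comparison, a neuron cohort (strain C57/BL6NTac, wild type) gave 4 hSyn1 IP and 4 input libraries, for which the labels name different animals, and the wild-type mice of a SAPAP3 cohort (strain C57/BL6J) gave another 4 of each, for whose IP the labels name no cell type.

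Astrocytes take up glutamate and GABA that neurons release, buffer extracellular potassium, couple to each other through gap junctions and wrap blood vessels with endfeet. They also hold the glycogen store of the brain, make serine and cholesterol for their neighbours, and change their gene expression during injury and inflammation. The striatum consists mostly of GABA-releasing medium spiny neurons with a small share of interneurons, beside oligodendrocytes, microglia and the cells of blood vessels. An IP over input ratio measures how the share of an RNA in the IP compares with its share in the whole tissue. It thus mixes the cell type that uses the gene with how much of its RNA is on ribosomes.

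The IP libraries held 44039366 to 48389014 counted reads and the inputs 24697181 to 30008152. Levels are given in CPM, the counts of a gene set to a common library size with TMM factors, and differences as the log2 fold change of IP over input, log2(FC), with its standard error (SE). *Rpl22* itself, whose coding sequence the AAV carries, had 2907, 2589, 2226 and 2999 CPM in the IP libraries of mice 1 to 4 and 405, 329.9, 319 and 449 CPM in their inputs, and was 7.13-fold higher in the IP (log2(FC) 2.83, SE 0.126). The quasi-likelihood test of edgeR, adjusted by the method of Benjamini and Hochberg over all genes tested, gave it an adjusted p = 2.2e-09. All 4 IP libraries lay above all 4 inputs. Both sets of libraries ordered the mice alike, with mouse 4 highest and mouse 3 lowest. Reads from the virus and from the mouse's own gene cannot be told apart.

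Many genes differed strongly between IP and input. Of the 15476 genes, 2072 (13.4%) were higher and 2085 (13.5%) lower in the IP (edgeR, no block). A gene was called, and is said to have risen or fallen, when its log2(FC) passed 1 or -1 with an adjusted p below 0.05. TMM scales the libraries so that the typical gene has no change, and the median log2(FC) over all genes tested was -0.02. At the adjusted p-value alone, without the limit on the fold change, 12448 genes (80.4%) passed, and in 11615 (75.1%) the 4 IP values did not overlap the 4 input values. Small shifts were common to most genes, and the counts below read the larger ones. Scaled instead so that ribosomal protein genes had no change, the median of all genes rose by 1.19 to 1.17, and 9259 genes were called higher and 659 lower. All directions below are therefore relative to the typical gene. Counts over a gene list are over its members that passed the filter on low counts. They are to be read against the 13.4% higher and 13.5% lower of all genes tested.

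*Slc1a2*, the glutamate transporter GLT1, had the largest log2(FC) of all called genes whose IP mean reached 10 CPM. It had 22738, 25062, 24654 and 22350.4 CPM in the IP libraries of mice 1 to 4 and 1959, 1819.9, 2016 and 1822 CPM in their inputs, which made it 12.4-fold higher in the IP (log2(FC) 3.64, SE 0.0623, adjusted p = 2.7e-12, edgeR). *Aqp4*, the water channel of endfeet, had 903, 909, 1011 and 1173 CPM in the IP and 113, 113, 121 and 131 CPM in the inputs (log2(FC) 3.07, SE 0.0880). *Gja1*, the gap junction protein connexin 43, had 1021, 980.1, 1024 and 916 CPM in the IP and 129, 128, 126 and 121 CPM in the inputs (log2(FC) 2.97, SE 0.0453). In these 3 genes, the lowest IP value was several times the highest input value. *Aldh1l1*, a folate enzyme much used as an astrocyte marker, had 573, 576, 570.3 and 602 CPM in the IP and 76.8, 70.5, 71.0 and 79.6 CPM in the inputs (log2(FC) 2.96, SE 0.0467). For each of the 4 genes, an exact permutation test (two-sided, 4 against 4) gave p = 0.029, the smallest that this test allows. It took the 8 libraries as independent and did not use the pairing by mouse.

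The full list of 12 astrocyte markers rose without exception. It ran from 1.73 for the calcium-binding protein gene *S100b* to 3.64 for *Slc1a2*, with a median of 2.93. In between lay the transcription factor *Sox9* (3.40), the intermediate filament gene *Gfap* (3.25), the glutamate transporter GLAST *Slc1a3* (2.89), the glycolytic enzyme *Aldoc* (2.74), *Mlc1* (2.61), *Fgfr3* (2.53) and glutamine synthetase *Glul* (2.32). Summed over the list, the IP held 41391 to 45880.1 CPM and the inputs 4987 to 5217 CPM. Astrocyte genes thus led these libraries. In bulk samples like the inputs, fewer cells of a type and less RNA per cell cannot be told apart.

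**Figure D1:**
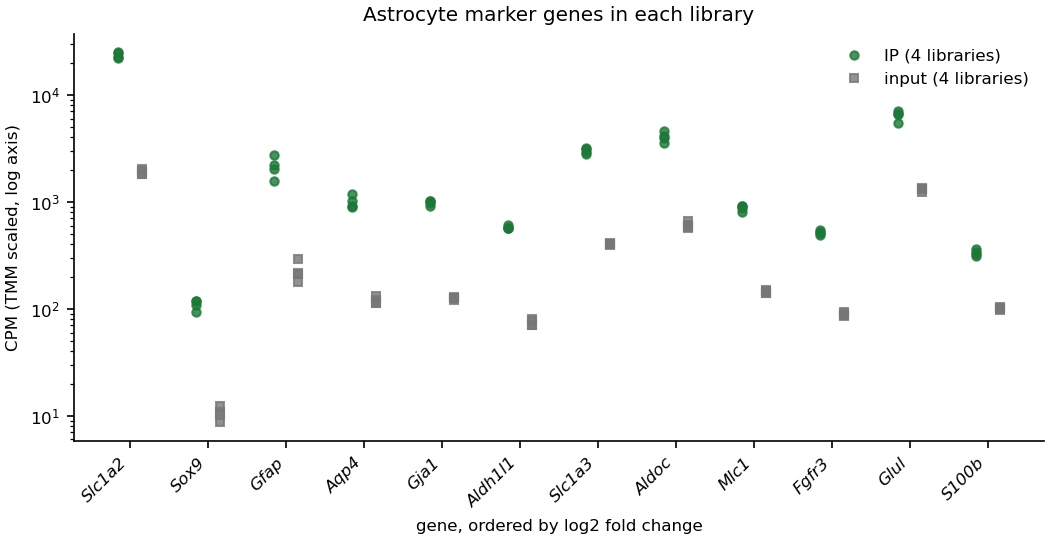
Level of the 12 astrocyte marker genes in CPM (log axis) in each of 4 IP (circles) and 4 input (squares) libraries, with genes ordered by log2 fold change. For each gene the 4 IP points lie close together and above all input points, from *Slc1a2* (log2(FC) 3.64) to *S100b* (1.73).

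Among called genes whose IP mean reached 10 CPM and whose groups did not overlap, *Slc1a2* was followed in the 12 largest increases by *Atp1b2*, the beta2 subunit of the sodium pump (3.56), *Sox9* (3.40), the transcription factor *Tfcp2l1* (3.33) and *Chrdl1*, a secreted BMP antagonist (3.30). The others were *Nos1*, which codes for neuronal nitric oxide synthase (3.29), the matrix protein gene *Dmp1* (3.27), *Gfap* (3.25), the secreted synapse inducer *Gpc4* (3.23), *Pm20d1* (3.22), the thrombospondin *Thbs4* (3.21) and the nuclear receptor *Rorb* (3.21). The 12 largest decreases, among called genes with at least 10 CPM in the input, were the RNA of the RNase MRP complex *Rmrp* (-7.36) followed by immune genes: *Ctss* (-6.25), *Tyrobp* (-6.003), *Tmem119* (-5.95), *C1qc* (-5.93), *C1qb* (-5.91), *Fcrls* (-5.85), *Selplg* (-5.72), *C1qa* (-5.72), *Ly86* (-5.70), *Lyz2* (-5.66) and the immunoglobulin joining chain *Igj* (-5.65).

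Levels per length (FPKM, the CPM divided by the kilobases of merged RefSeq exons) gave another view of what astrocyte ribosomes hold most of. The highest gene in the IP was *Cst3*, the secreted protease inhibitor cystatin C, at 3187 ± 313 FPKM (mean ± SD, n = 4), against 1139 ± 60.8 in the input. It was followed by the peptide-processing enzyme *Cpe* (2905 ± 145), *Glul* (2136 ± 219), the creatine kinase *Ckb* (2068 ± 102) and apolipoprotein E *Apoe* (2012 ± 102). *Cst3* and *Cpe* did not differ beyond their spread. *Sparcl1*, *Slc1a2*, *Clu*, *Aldoc*, *Scd2*, *Actb*, *Ndrg2*, *Tspan7*, *Rpl22* and *Psap* completed the first 15, at 1863 down to 926 FPKM. In the input the first 2 places went to short noncoding RNAs, *Rpph1* (10975 ± 824 FPKM, 218 ± 33.9 in the IP) and *Rmrp* (6009.9 ± 674, 31.4 ± 3.15 in the IP), and the third to the nuclear RNA *Malat1* (1632 ± 102, 337 ± 39.4 in the IP). The first 15 of the input also held the medium spiny neuron genes *Penk*, *Ppp1r1b* and *Pcp4*, none of which was among the first 15 of the IP.

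Microglial RNA was depleted furthest. All 12 microglia markers fell, with a median log2(FC) of -5.61 and the lowest value, -6.25, for the protease gene *Ctss*. *Csf1r*, the receptor microglia need to survive, had 3.43, 3.33, 3.78 and 3.81 CPM in the IP and 155, 136, 153 and 157 CPM in the inputs (log2(FC) -5.39). *Cx3cr1*, the fractalkine receptor, had 1.86, 1.45, 2.50 and 2.78 CPM in the IP and 94.4, 96.7, 101 and 99.6 CPM in the inputs (log2(FC) -5.51). Every input exceeded every IP by more than an order of magnitude for both receptors. The ADP receptor *P2ry12* (-2.60) and *Aif1* (-3.19) fell by less than these receptors did. Summed over the list, the IP held 5.48% to 5.94% of the input level of the same mouse.

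Markers of vessels and meninges were lower less evenly. Among 12 endothelial markers 11 fell (median -3.39), such as the tight junction gene *Cldn5* (-3.94) and *Pecam1* (-3.83). The exception was *Bsg*, which is used by many cell types, at 0.32. Of 9 mural cell markers tested, 5 fell and 2 rose. The pericyte gene *Rgs5* stood at -1.46 and vitronectin *Vtn* at -1.90, whereas the growth factor receptor *Pdgfrb* was higher in the IP (1.45), with 72.9, 71.2, 77.2 and 70.1 CPM in the IP and 26.7, 24.5, 28.9 and 26.3 CPM in the inputs. The IP and input values of *Pdgfrb* did not overlap. The other was the smooth muscle actin *Acta2* (1.01), which was not called without the IP of mouse 1 (0.93), the IP of mouse 3 (0.97), the input of mouse 1 (0.97) or the input of mouse 2 (0.87). Of 10 fibroblast and meningeal markers 7 fell and *Pdgfrl* rose (1.93), with a median of -2.78, or -2.37 when the genes without more than 3 reads in any IP library were set to their bound. Among these, the anion transporter *Slc22a6* had no read in any IP library and was at least 15.5-fold lower (computed at 3 reads per library).

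Oligodendrocyte RNA, by contrast, was close to its input level. Of 14 oligodendrocyte markers, 1 fell, *Mobp* (-1.05), and none rose, around a median of -0.081. *Cnp*, an enzyme of myelin, had 640.3, 514, 757 and 705 CPM in the IP and 460.3, 477, 519.9 and 482 CPM in the inputs (log2(FC) 0.43). The IP values spread widely and overlapped the inputs, with mouse 2 lowest and mouse 3 highest. The summed list showed the same order of mice in the IP, from 3909 CPM in mouse 2 to 6658 in mouse 3, against 5822 to 6802 in the inputs. Within the list, the transcription factor *Myrf* (0.97) was at the upper end, and *Mobp* and myelin basic protein *Mbp* (-0.61) at the lower end. Without the IP of mouse 2, *Mobp* stood at -0.92 and no marker fell, and *Myrf* passed as higher at 1.13, as it did without the IP of mouse 1 (1.02) or the input of mouse 4 (1.02). None of 11 markers of oligodendrocyte precursors passed in either direction (median 0.16), among them *Pdgfra* (0.46), *Cspg4* (0.74) and *Olig1* (0.084).

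Genes of ependymal cells, which line the ventricle next to the striatum, were higher too. Of 8 ependymal and choroid plexus markers tested, 6 rose, among them *Foxj1*, the master regulator of motile cilia (2.14), and *Rarres2* (2.08), while the choroid plexus genes *Clic6* (-1.17) and *Kl* (-1.33) fell. *Foxj1* had 82.2, 46.6, 87.1 and 72.4 CPM in the IP and 14.4, 14.1, 17.5 and 19.3 CPM in the inputs. Its IP value in mouse 2 was the lowest of the 4 and still above all inputs. In a longer list of 40 ciliary genes, 10 rose and 3 fell (median 0.45), the axonemal dyneins *Dnah9* (2.20) and *Dnah6* (2.19) and the central pair protein *Spag17* (2.19) at the top.

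**Figure D2:**
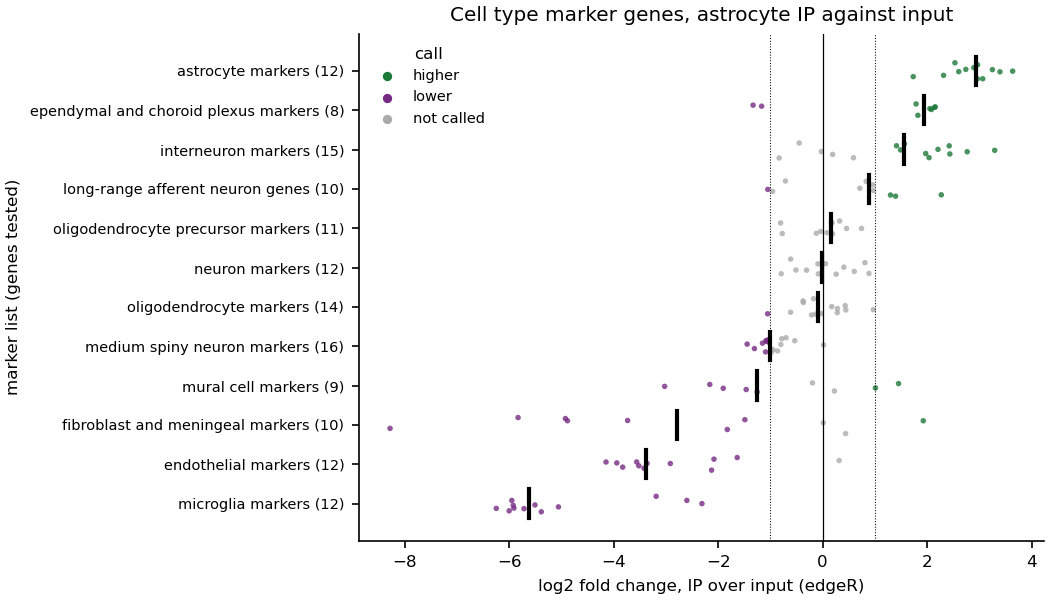
Log2 fold change of IP over input for the tested genes of 12 cell type lists, 1 point per gene, coloured by call, with a black bar at each list's median and dotted lines at the limits of 1 and -1. Astrocyte markers lie at the top (median 2.93), interneuron markers are shifted up (median 1.57) and microglia markers lie at the bottom (median -5.61).

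Neuronal genes split by the kind of neuron. Of 12 general neuron markers none passed in either direction (median -0.014), with synapsin *Syn1* at 0.89 and the nuclear protein gene *Rbfox3* at -0.79. Of 16 markers of medium spiny neurons, 8 fell and none rose (median -1.005). The adenosine receptor *Adora2a* fell most, with 148, 119, 147 and 135 CPM in the IP and 367, 368, 396 and 364 CPM in the inputs (log2(FC) -1.45, SE 0.0637). The dopamine receptor *Drd1a* fell by less (-1.08), and *Drd2* (-0.98), enkephalin *Penk* (-0.78) and DARPP-32 *Ppp1r1b* (-0.86) stayed inside the limit of 1, although *Drd2* passed it without the IP of mouse 1. The IP thus held medium spiny neuron RNA at 46.7% to 58.1% of its input level, summed over the list.

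Interneuron genes went the other way. Of 15 interneuron markers, 10 rose and none fell, with a median of 1.57. *Nos1*, which marks the interneurons that also make somatostatin and neuropeptide Y, had 378, 384, 346 and 355 CPM in the IP and 36.1, 38.6, 37.9 and 36.4 CPM in the inputs (log2(FC) 3.29, SE 0.0461, adjusted p = 2.0e-12, edgeR). Each IP library was at least several times above every input. *Chat*, the enzyme that makes acetylcholine, had 156, 155, 151 and 159 CPM in the IP and 29.4, 28.6, 24.7 and 32.2 CPM in the inputs (log2(FC) 2.44, SE 0.0661). *Sst*, the somatostatin gene, had 299, 312, 258 and 239 CPM in the IP and 70.0, 69.0, 66.9 and 64.0 CPM in the inputs (log2(FC) 2.04, SE 0.0794). Other genes of cholinergic neurons rose as well, namely the choline transporter *Slc5a7* (2.42) and the vesicular acetylcholine transporter *Slc18a3* (2.21). So did the substance P receptor *Tacr1* (2.77), *Npy* (1.97), *Kit* (1.57) and *Lhx6* (1.41). *Pvalb*, the marker of fast-spiking interneurons, had 12.8, 12.3, 11.4 and 13.1 CPM in the IP and 20.6, 21.4, 22.1 and 24.4 CPM in the inputs (log2(FC) -0.83, not called), and *Calb2* stood at -0.45. The GABA-synthesizing enzymes *Gad1* (0.19) and *Gad2* (-0.024), which medium spiny neurons express too, were near their input level. The summed list was 1.86 to 2.11 times its input level in the 4 mice.

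Genes of neurons that project into the striatum from elsewhere were low in both kinds of library, at 102 to 296 CPM in the IP summed over 10 genes and 90.6 to 121 CPM in the input. Of the 10, 3 rose, the serotonin enzyme *Tph2* (2.27), the dopamine enzyme *Th* (1.40) and the cortical transcription factor *Tbr1* (1.30), and *Ddc* fell (-1.05). The counts moved with single libraries, to 6 higher and 2 lower without the IP of mouse 1, 5 higher without the IP of mouse 3, 5 higher and 2 lower without the input of mouse 3, and 2 lower without the IP of mouse 2. Without that last library *Tbr1* (0.98) and *Ddc* (-0.92) were not called, and neither was *Ddc* without the input of mouse 1 (-0.94). *Slc17a7*, the vesicular glutamate transporter of cortical neurons, had 50.0, 206, 88.4 and 136 CPM in the IP and 54.4, 64.5, 81.9 and 68.1 CPM in the inputs, and its IP values overlapped the inputs. Mouse 2 was highest and mouse 1 lowest in its IP, and without the IP of mouse 1 it passed as higher (1.10).

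Genes that clear and recycle transmitters had the highest median of the functional lists. Of 18 genes of transmitter uptake and the glutamine cycle, 13 rose and 1 fell (median 1.98, against -0.02 over all genes tested). *Slc1a2* and *Slc1a3* were joined by the glutamine exporter *Slc38a3* (2.56), and *Glul*, which turns glutamate into glutamine, had 6692, 7089.6, 6619 and 5507 CPM in the IP and 1339, 1321, 1309 and 1236 CPM in the inputs (log2(FC) 2.32, SE 0.0727). No input reached the lowest IP. The mitochondrial transaminase *Got2* (-0.073) stayed near 0, and the transporter *Slc38a5* fell (-3.54) from a mean of 2.47 CPM in the input. Of 18 genes that handle potassium, protons and water, 11 rose and 1 fell (median 1.31). They were led by *Atp1b2*, by the inward rectifier Kir4.1 *Kcnj10* (3.20) and by *Aqp4*, with the bicarbonate transporter *Slc4a4* (1.58) among the most abundant. *Trpv4* fell (-1.88), while the channel *Kcnk2* (-0.80) and the pump modulator *Fxyd7* (-0.56) were not called. Of 23 genes of gap junctions, adhesion and the endfoot scaffold, 17 rose and none fell (median 1.33), with *Gja1*, *Mlc1* and the claudin *Cldn10* (2.43) at the top and *Cldn12* (-0.31), agrin *Agrn* (-0.23) and utrophin *Utrn* (0.033) at the bottom.

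Metabolic groups did not all move together. Fatty acid oxidation rose most broadly, in 28 of 35 genes with none lower (median 1.61). The acyl-CoA synthetase *Acsbg1* had 1060.2, 1214, 1077 and 978 CPM in the IP and 150.3, 165, 154 and 144 CPM in the inputs (log2(FC) 2.82, SE 0.0679). *Cpt1a*, which admits fatty acids to mitochondria, had 193, 206, 199.7 and 182 CPM in the IP and 31.9, 31.6, 30.7 and 33.0 CPM in the inputs (log2(FC) 2.62, SE 0.0454). Neither gene's IP values overlapped the inputs. *Cpt1c*, the neuronal member of that family, stood at 0.13. Of 37 genes of glutathione, xenobiotic and retinoid metabolism, 25 rose and none fell (median 1.87), from haem oxygenase *Hmox1* (2.80), monoamine oxidase B *Maob* (2.68) and *Aldh1a1* (2.64) down to glutathione peroxidase *Gpx1* (-0.73). Serine, glycine and one-carbon metabolism had 13 of 22 genes higher and 1 lower (median 1.41), with the glycine decarboxylase *Gldc* (2.85), the cystathionine synthase *Cbs* (2.51) and the serine pathway enzyme *Psat1* (1.76) among those that rose.

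Within carbohydrate metabolism, 12 of 29 genes rose and 1 fell (median 0.97). The glycogen phosphorylases *Pygm* (2.45) and *Pygb* (2.41) rose with *Aldoc*, whereas the other abundant aldolase, *Aldoa* (0.58), and *Tpi1* (0.34) were not called and hexokinase 2 *Hk2* fell (-1.23). Of 26 genes of the tricarboxylic acid cycle, 7 rose, led by *Pdk4* (2.68), *Suclg2* (2.17) and *Idh2* (1.97), and all 26 had a log2(FC) above 0 (median 0.55). None of 79 nuclear-encoded subunits of the respiratory chain rose and 1 fell (median -0.064), with *Atp5b* at 0.53 and *Sdha* at 0.86. Of 24 genes of cholesterol synthesis, 12 rose and none fell (median 1.05), led by *Idi1* (1.82), *Hmgcs1* (1.80) and *Msmo1* (1.51). All 24 had a log2(FC) above 0. Of 21 genes of lipoproteins and lipid transport, 10 rose and none fell (median 0.92), where *Lrp4* (2.74), clusterin *Clu* (2.67) and *Apoe* (2.60) were at the top and lipoprotein lipase *Lpl* (-0.56) near the bottom. Without the input of mouse 2 or of mouse 4, 1 gene of that list was lower.

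Regulators of the astrocyte state rose in large numbers. Of 40 transcription factors listed for astrocytes, 31 rose and none fell (median 1.81), with *Sox9*, *Tfcp2l1* and *Rorb* first. *Sox9* had 108, 94.3, 119 and 119 CPM in the IP and 10.1, 8.72, 10.8 and 12.2 CPM in the inputs. The inputs did not reach the IP values. Of 45 genes of the Notch, Wnt, Hedgehog, BMP and FGF pathways, 32 rose and 2 fell (median 1.84), among them *Chrdl1*, *Dkk3* (2.80), the receptors *Egfr* (2.78) and *Fgfr3*, and, in the other direction, *Tgfbr1* (-1.45). Of 39 genes for secreted synapse regulators and matrix, 25 rose and 1 fell (median 1.71). *Sparcl1*, whose product hevin promotes synapse formation, had 7026, 7391, 6991 and 6127 CPM in the IP and 1211, 1225, 1164 and 1144 CPM in the inputs (log2(FC) 2.54, SE 0.0600). *Hapln2*, a matrix gene of myelinated fibres, fell (-1.33), and 2 genes of the list were lower without the IP of mouse 3 or the input of mouse 4.

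Receptors and calcium handling were more mixed. Of 34 tested G protein-coupled receptors from a list chosen for astrocytes, 15 rose and 2 fell (median 0.74). *Celsr1* (2.98), the endothelin receptor *Ednra* (2.78) and the sphingosine phosphate receptor *S1pr1* (2.66) were at the top. The abundant GABA-B subunit *Gabbr1* stood at 0.37, and the 2 that fell were *P2ry12* and *P2ry14* (-1.94). Of 35 genes for calcium stores and inositol phosphates, 8 rose and 7 fell (median -0.16). The phospholipases *Plcd4* (2.52), *Plcd1* (2.35) and *Plcb3* (2.33) rose, and the inositol trisphosphate receptor *Itpr3* (-2.44), *Plcb2* (-1.996) and the ryanodine receptor *Ryr1* (-1.75) fell. *Itpr1*, the most abundant of these, was at -0.40. Of 38 actin-linked genes of fine processes, 15 rose and none fell (median 0.62), led by *Arhgef26* (2.97), *Palld* (2.81) and ezrin *Ezr* (2.73), which had 350.0, 349, 347 and 323 CPM in the IP and 53.2, 51.0, 51.8 and 50.7 CPM in the inputs. Actin itself, *Actb*, stood at 0.17.

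**Figure D3:**
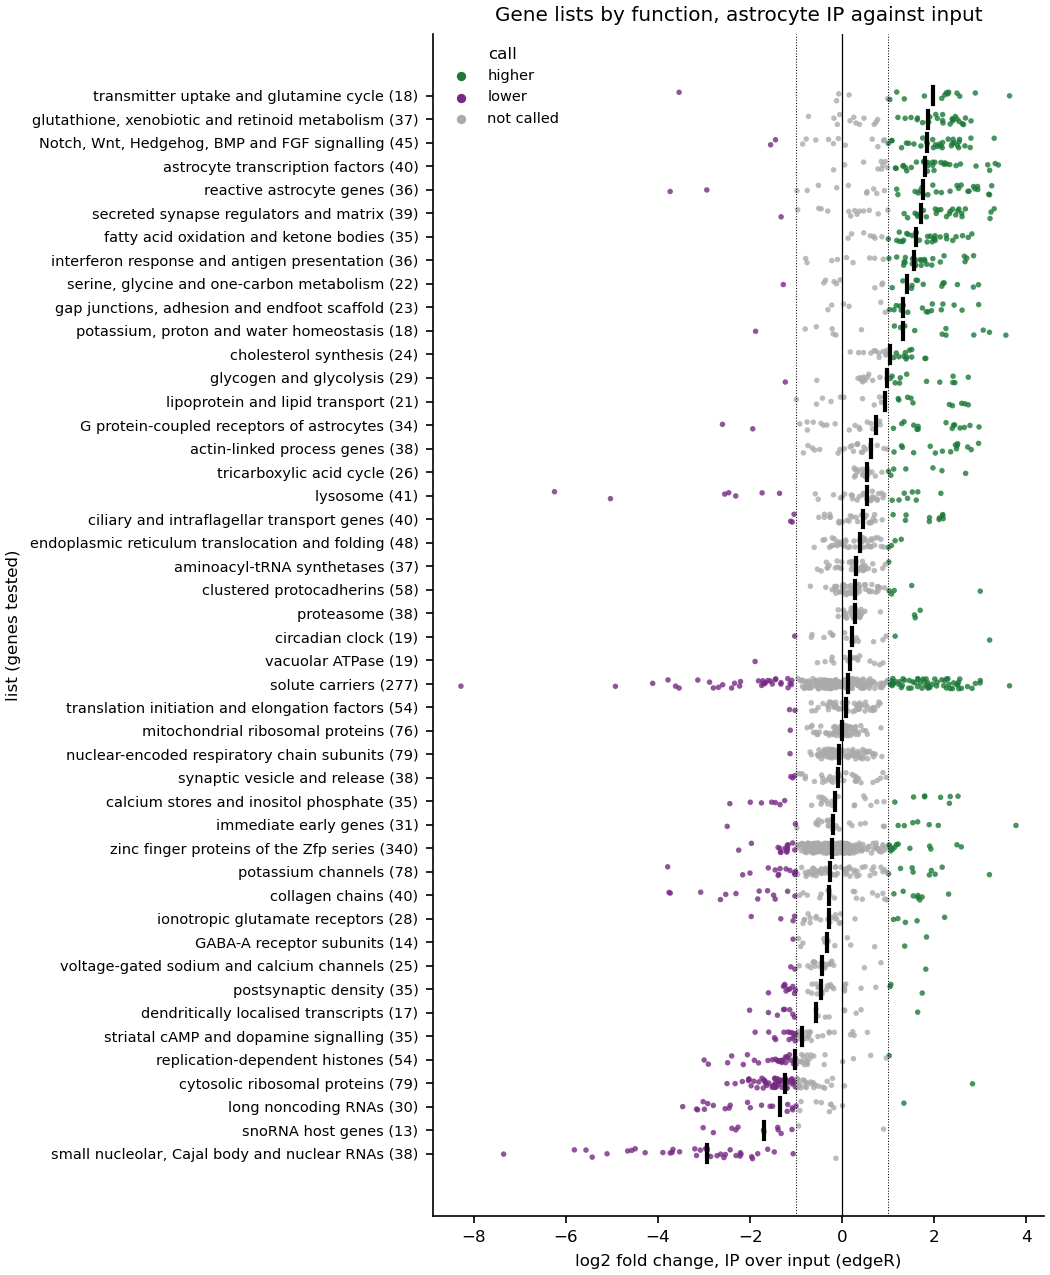
Log2 fold change of IP over input for the tested genes of the functional lists, ordered by their median (black bar), 1 point per gene, coloured by call, with dotted lines at 1 and -1. Transmitter uptake stands at the top (median 1.98) and small nucleolar, Cajal body and nuclear RNAs at the bottom (median -2.93).

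Interferon-responsive and reactive genes were enriched in the IP and differed between mice. Of 36 genes of the interferon response and antigen presentation, 27 rose and none fell (median 1.57). Those that did not rise included the class II genes *H2-Aa* (-0.79), *Cd74* (-0.76) and *H2-Ab1* (-0.23), which present peptides on professional immune cells. Without the IP of mouse 3, *H2-Aa* (-1.10) and *Cd74* (-1.12) passed as lower. *Ifit3*, an antiviral effector, had 454, 231, 309 and 681 CPM in the IP and 72.2, 33.5, 41.8 and 109 CPM in the inputs (log2(FC) 2.71, SE 0.402, adjusted p = 7.2e-05, edgeR). *Gbp2*, an interferon-induced GTPase, had 278, 148, 279 and 493 CPM in the IP and 39.5, 24.1, 35.9 and 66.7 CPM in the inputs (log2(FC) 2.86, SE 0.367). Mouse 4 was highest and mouse 2 lowest for both genes in both kinds of library, and the highest IP value was 2.95 times the lowest for *Ifit3* and 3.33 times for *Gbp2*. The light chain of class I molecules, *B2m*, had 637, 451, 761.8 and 792 CPM in the IP and 255, 179, 256 and 329.7 CPM in the inputs (log2(FC) 1.37). Mouse 4 was highest and mouse 2 lowest here too, and the IP values lay above all inputs.

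Summed over the interferon list, the IP held 4594, 2853, 4402 and 6439 CPM in mice 1 to 4, and the inputs 1577, 970.3, 1375 and 2230.5 CPM. The order of the mice was the same in IP and input, so that the ratio within a mouse, 2.89 to 3.20, varied far less than the level. Of 36 reactive astrocyte genes 24 rose and 2 fell (median 1.75). The transglutaminase *Tgm1* had 20.6, 7.95, 12.2 and 53.7 CPM in the IP and 2.35, 1.14, 1.37 and 5.59 CPM in the inputs (log2(FC) 3.20), again highest in mouse 4 and lowest in mouse 2. *Cd14* (-3.74) and *Srgn* (-2.94), which microglia express, fell. The summed list ran from 2705 CPM in mouse 2 to 5485 in mouse 4 in the IP and from 550.0 to 962 in the inputs of the same mice. *Rpl22*, which counts the virus too, was also highest in mouse 4 in both kinds of library, but lowest in mouse 3, and the astrocyte marker sum was lowest in mouse 4. The part of the virus in these levels was not tested, and all 4 mice received it.

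**Figure D4:**
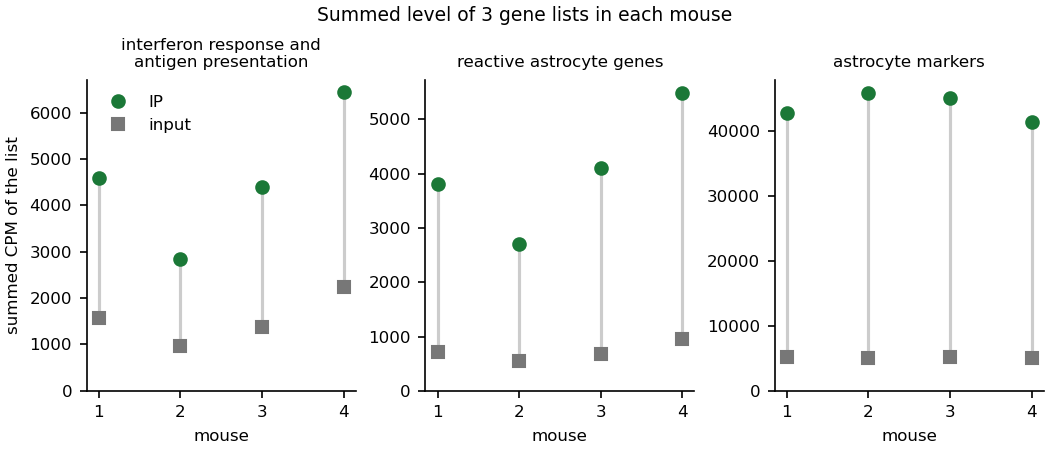
Summed CPM of 3 gene lists in the IP (circles) and input (squares) of mice 1 to 4, with a grey line joining the libraries of a mouse. The interferon list runs from 2853 CPM in the IP of mouse 2 to 6439 in that of mouse 4, with the inputs in the same order, while the astrocyte markers stay between 41391 and 45880.1 CPM.

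Interferon-induced genes are known for a short promoter element to which STAT and IRF proteins bind. In the 250 bases before the start site, RefSeq promoters (GRCm38.p6) of 11 of the 27 interferon list genes with an entry held its core, written GAAANNGAAA and searched on both strands, where matches may overlap. Over all 27025 genes with an entry, 3.46% held it. Of the 23 list genes with an entry that rose, 9 held it. The list was compiled from genes known to respond to interferon, so this is a description of its promoters and not a test. The promoters printed next belong to 3 of these genes, *Ifit3*, *Gbp2* and *B2m*, whose levels are given above. They are shown on the gene's strand up to the base before the start site, with the motif on either strand in capitals.
Ifit3 (GRCm38.p6, chr19:34583279-34583528, plus strand): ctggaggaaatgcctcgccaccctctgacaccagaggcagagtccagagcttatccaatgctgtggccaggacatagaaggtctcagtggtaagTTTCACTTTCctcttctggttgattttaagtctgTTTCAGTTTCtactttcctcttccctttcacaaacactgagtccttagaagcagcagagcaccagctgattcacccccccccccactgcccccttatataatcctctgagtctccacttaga
Gbp2 (GRCm38.p6, chr3:142620413-142620662, plus strand): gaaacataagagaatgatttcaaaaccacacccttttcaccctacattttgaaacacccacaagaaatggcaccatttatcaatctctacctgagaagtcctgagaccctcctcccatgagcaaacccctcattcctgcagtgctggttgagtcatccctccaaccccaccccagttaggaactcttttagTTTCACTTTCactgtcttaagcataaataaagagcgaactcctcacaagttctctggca
B2m (GRCm38.p6, chr2:122147437-122147686, plus strand): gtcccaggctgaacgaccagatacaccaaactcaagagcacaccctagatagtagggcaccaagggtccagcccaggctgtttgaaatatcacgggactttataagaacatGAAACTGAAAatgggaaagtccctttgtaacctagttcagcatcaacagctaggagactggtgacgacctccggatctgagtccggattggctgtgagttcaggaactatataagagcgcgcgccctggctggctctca

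Synaptic genes were mostly at or below their input level. None of 38 genes of synaptic vesicles and release rose and 3 fell (median -0.088). The calcium sensor *Doc2b* fell most (-1.11), the abundant *Snap25* (-0.084) and *Syt1* (0.26) were near 0, and *Rph3a* stood highest (0.96). Without the IP of mouse 1, 2 genes of that list passed as higher, and 1, *Rph3a* (1.00), without the input of mouse 4. Of 35 postsynaptic density genes 10 fell and 3 rose (median -0.45). The decreases were led by *Psd* (-1.60), neurogranin *Nrgn* (-1.27) and *Itpka* (-1.25), and the increases were *Homer3* (1.74), *Sipa1l2* (1.06) and *Homer2* (1.04), the last of which was not called without the input of mouse 1. *Dlgap3* had 267, 247, 259 and 249 CPM in the IP and 589, 637, 616 and 586 CPM in the inputs (log2(FC) -1.25, SE 0.0401, adjusted p = 1.6e-10, edgeR). Its IP values lay below all inputs at 42.1% of their mean. Dendritically localised transcripts fell in 8 of 17 genes and rose in 1 (median -0.56). *Ddn*, whose RNA lies in dendrites, had 425, 407, 422 and 434 CPM in the IP and 1762, 1738, 1706 and 1603 CPM in the inputs (log2(FC) -2.01, SE 0.0408), the lowest of that list.

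Signalling genes typical of medium spiny neurons were lower in the IP. Of 35 striatal cAMP and dopamine signalling genes 13 fell and none rose (median -0.86). *Arpp21*, a substrate of protein kinase A, had 413, 380.3, 413 and 396 CPM in the IP and 1533, 1465, 1516 and 1426 CPM in the inputs (log2(FC) -1.89, SE 0.0412). The receptor *Gpr52* (-1.60) and the G protein subunit *Gng7* (-1.47) followed, and *Pde10a*, the most abundant, was not called (-0.70). Ionotropic glutamate receptors and their partners gave 5 higher (17.9%) and 4 lower (14.3%) of 28 (median -0.29), near the shares over all genes tested. *Grin2c*, an NMDA receptor subunit known from astrocytes, rose most (2.23), with 215, 256, 225 and 211 CPM in the IP and 46.1, 48.5, 49.4 and 49.7 CPM in the inputs, and *Cnih2*, an AMPA receptor auxiliary subunit, fell most (-1.97). Among 14 GABA-A receptor genes *Gabrg1* (1.83) and *Gabrb1* (1.36) rose, a share of 14.3% against 13.4% of all genes tested. *Gabrd* fell (-1.07, a share of 7.14%), joined by another member without the IP of mouse 2. Of 25 sodium and calcium channel genes 1 rose (4%), *Scn7a* (1.82), and 2 fell (8%), *Scn4b* (-1.12) and *Cacna1h* (-1.03). Both shares were below those of all genes tested. *Cacna1h* was not called without the IP of mouse 2 (-0.97) or mouse 4. Immediate early genes, which respond to neuronal activity and to handling, had 7 of 31 higher and 2 lower (median -0.20), with *Fosl1* first (3.78, from a mean of 0.197 CPM in the input), *Cyr61* (2.09) next and *Arc* at -0.56. Without the IP of mouse 1, the IP of mouse 2 or the input of mouse 3, 1 of these genes was lower.

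RNAs for ribosomal proteins were depleted in the IP. Of 79 cytosolic ribosomal protein genes, 52 fell and *Rpl22* alone rose, with a median log2(FC) of -1.24 against -0.02 over all genes tested. The lowest were *Rps12* (-2.50), *Rplp1* (-2.33) and *Rps29* (-2.17). *Rplp1* had 86.3, 81.9, 87.5 and 85.9 CPM in the IP and 416, 416, 445 and 435 CPM in the inputs, without overlap. Many ribosomal protein genes have processed pseudogenes, so the counts of single members are uncertain. Mitochondrial ribosomal proteins did not follow, with none of 76 higher, 1 lower and a median of -0.0089. Initiation and elongation factors gave none higher and 2 lower of 54 (median 0.082). The 2 were *Eif4e3* (-1.14) and, except without the input of mouse 3, *Eef1b2* (-1.02), while *Eef1a1* (-0.52) and *Eef2* (0.12), the elongation factors with the highest counts, were not called. Of 48 genes of endoplasmic reticulum translocation and folding, through which secreted and membrane proteins pass, 4 rose and none fell (median 0.38). The share that rose was 8.33%, against 13.4% of all genes tested, with *Dnajc3* (1.28) and calnexin *Canx* (1.15) first.

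Ribosomal protein RNAs had lower medians than other coding genes of their length. Among tested genes with merged exons of up to 500 bases, the median log2(FC) was -1.43 for 11 ribosomal protein genes and -0.88 for 68 other coding genes. From 501 to 1000 bases it was -1.31 for 39 and -0.16 for 504. From 1001 to 2000 bases it was -0.97 for 23 and 0.023 for 2133. Other coding genes above 2000 bases had a median of 0.02 in each of the longer classes. Other coding genes were thus lower in the IP mainly up to 500 bases, and ribosomal protein RNAs were lower still at each of the 3 lengths. Histone genes were not set apart from the other coding genes here. The part of library preparation in this length pattern was not tested, and the labels and the paper name different library kits.

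Noncoding RNAs were depleted, those of the nucleus and nucleolus most. Of 38 small nucleolar, Cajal body and nuclear RNAs tested, out of 130 listed, 37 fell and none rose (median -2.93, or -2.89 with genes of at most 3 reads in the IP libraries at their bound). *Rmrp* had 10.2, 8.21, 9.97 and 8.92 CPM in the IP and 1691, 1355, 1428 and 1648 CPM in the inputs (log2(FC) -7.36, SE 0.105). *Rpph1*, the RNA of RNase P, had 62.7, 72.3, 90.4 and 80.9 CPM in the IP and 3369, 3009, 3277 and 3558 CPM in the inputs (log2(FC) -5.43, SE 0.114). In the inputs, both RNAs stood above 1000 CPM, and in the IP below 100 CPM. Host genes of small nucleolar RNAs fell in 11 of 13 (median -1.70), among them *Snhg11* (-2.80) and *Gas5* (-1.71). Of 30 named long noncoding RNAs 20 fell and 1 rose (median -1.35). *Malat1*, a nuclear speckle RNA, had 2202, 2426, 2897 and 2632 CPM in the IP and 10684, 10321, 9938 and 11268 CPM in the inputs (log2(FC) -2.06, SE 0.0802), and *Miat* (-3.16) and *A930011O12Rik* (-3.46) fell further. The exception, *Pantr1* (1.34), is transcribed next to the neural factor gene *Pou3f3*. Over the annotation, 295 of 624 genes of the class lncRNA were lower and 47 higher (median -0.93), and all 34 snoRNA genes tested were lower, against 1640 lower and 2010 higher of 14576 coding genes. Small RNAs lie within host genes, so their single values are uncertain.

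Replication-dependent histone genes, whose RNAs end without a poly(A) tail, fell in 30 of 54 and rose in 1 (median -1.02). The exception was *Hist1h2bc* (1.02), joined by another gene without the IP of mouse 4 or the input of mouse 1 or 2, and the lowest were *Hist1h3c* (-2.998) and *Hist1h3b* (-2.91), at means of 1.94 and 2.26 CPM in the input. Near-identical copies make the single values of this family uncertain. Clustered protocadherins, which give cells their surface identity, rose in 5 of 58 and fell in none (median 0.28). The share that rose, 8.62%, was below the 13.4% of all genes tested. The protocadherins hold 1 member far above the rest, *Pcdhgc3*, with 467, 469, 474 and 449.6 CPM in the IP and 59.8, 57.6, 58.3 and 56.5 CPM in the inputs (log2(FC) 3.00, SE 0.0348), next to *Pcdhgc4* (1.51) and *Pcdhgc5* (0.36). The members of the gamma cluster share their 3' exons, which leaves their counts uncertain. Of 41 lysosomal genes 8 rose and 7 fell (median 0.53), where *Cd63* (2.15) and *Tpp1* (1.65) were at the top and the genes of immune cells *Ctss* and *Laptm5* (-5.03) at the bottom. None of 38 proteasome genes fell, and the 3 that rose, *Psmb8* (1.70), *Psmb9* (1.59) and *Psmb10* (1.57), are the subunits of the immunoproteasome, which interferon induces.

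The larger families held members in both directions. Of 277 solute carriers 61 rose and 33 fell (median 0.12), from *Slc1a2*, the arginine transporter *Slc7a2* (3.00) and the urea transporter *Slc14a1* (3.00) to the iron transporter of phagocytes *Slc11a1* (-4.12). Of 78 potassium channel genes 9 rose (11.5%) and 13 fell (16.7%), with a median of -0.26 and shares near those over all genes tested. *Kcnj10* and *Kcnj16* (2.17), which form channels together in astrocytes, rose most, and *Kcnk6* (-3.79) and *Kcnj8* (-2.16), the latter a pericyte gene, fell most. Of 40 collagen chains 8 rose and 13 fell (median -0.28). Zinc finger genes of the Zfp series gave 12 higher and 15 lower of 340, a share of 3.53% and 4.41% against 13.4% and 13.5% of all genes tested. Of 37 aminoacyl-tRNA synthetases *Dars* alone rose (1.01) and none fell, and 2 rose without the IP of mouse 2, the IP of mouse 3 or the input of mouse 1. Of 19 circadian clock genes, *Rorb* and *Rora* (1.15) rose, a share of 10.5%, and *Npas2* fell (-1.03, a share of 5.26%). Both shares were below those of all genes tested. *Npas2* was not called without the IP of mouse 2, the IP of mouse 4 or the input of mouse 3. Of 19 subunits of the vacuolar ATPase tested, none rose and *Atp6v1c2* fell (-1.89). Messenger RNAs encoded by the mitochondrial genome were not analysed here.

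The neuron cohort served to ask what belongs to the astrocyte IP and what to RiboTag IPs in general. There, 68 of 16198 genes tested (0.42%) were higher and 2567 (15.8%) lower in the IP. The difference between the log2(FC) of the 2 cohorts was tested with an interaction term, and passed for 3135 of 16371 genes (19.1%) as larger and 1354 (8.27%) as smaller in the astrocyte cohort (edgeR, same limits). Genes higher in both IPs numbered 14 among 15385 genes tested in both. They were 0.692% of the 2024 called in astrocytes, against 0.42% of all genes higher in the neuron IP. They were 24.6% of the 57 called in neurons, against 13.4% of all genes higher in the astrocyte IP. Genes lower in both numbered 1117. These were 54.0% of the 2069 lower in the astrocyte IP, against 15.8% of all genes lower in the neuron IP. They were 50.7% of the 2205 lower in the neuron IP, against 13.5% of all genes lower in the astrocyte IP. Over the genes tested in both, Pearson's r of the log2(FC) values was 0.47 and Spearman's rho 0.13, a description across genes, which are not independent replicates.

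Among the largest differences were those of *Dmp1* (3.27 against -1.39, difference 4.67, SE 0.366) and *Slc1a2* (3.64 against -0.72, difference 4.36, SE 0.107). In the other direction stood *Spp1* (-2.25 against 0.83, difference -3.08, SE 0.412) and *Pcp4* (-1.34 against 1.07, difference -2.41, SE 0.0784). All 12 astrocyte markers had a larger ratio in the astrocyte cohort (median log2(FC) 2.93 against -0.63), and 15 of 16 medium spiny neuron markers a smaller one (-1.005 against 0.73). Among interneuron markers 9 had a larger ratio in the astrocyte cohort and 1 a smaller one (1.57 against 0.61). For *Nos1*, the log2(FC) was 3.29 in the astrocyte and 0.65 in the neuron cohort, a difference of 2.65 (SE 0.0951, adjusted p = 1.8e-13, edgeR). For *Chat* it was 2.44 and 1.30, a difference of 1.13 (SE 0.202, adjusted p = 8.8e-05, edgeR). The interneuron with the smaller ratio was *Pvalb* (-0.83 against 0.92). Most interneuron genes were thus higher over their input in the IP of the virus meant for astrocytes than in that of the virus meant for neurons.

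All 14 oligodendrocyte markers and 10 of 11 precursor markers had a larger ratio in the astrocyte cohort, at medians of -0.081 against -1.63 and 0.16 against -2.18. Microglia and endothelial markers were low in both IPs (-5.61 and -4.44, -3.39 and -3.51). So were long noncoding RNAs (-1.35 and -1.99) and small nucleolar and nuclear RNAs (-2.93 and -3.17). Of 78 cytosolic ribosomal protein genes tested in the neuron cohort, 9 fell (median -0.51), no larger a share than the 15.8% of all genes, and 21 of 79 had a smaller ratio in the astrocyte cohort, against 8.27% of all genes. Histones had a median of 0.15 in the neuron cohort, and 31 of 55 a smaller ratio in the astrocyte cohort. The interferon list had a median near 0 there, and 23 of its 36 genes had a larger ratio in the astrocyte cohort, against 19.1% of all genes. The 2 cohorts share no library, and cohort and cell type cannot be told apart.

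**Figure D5:**
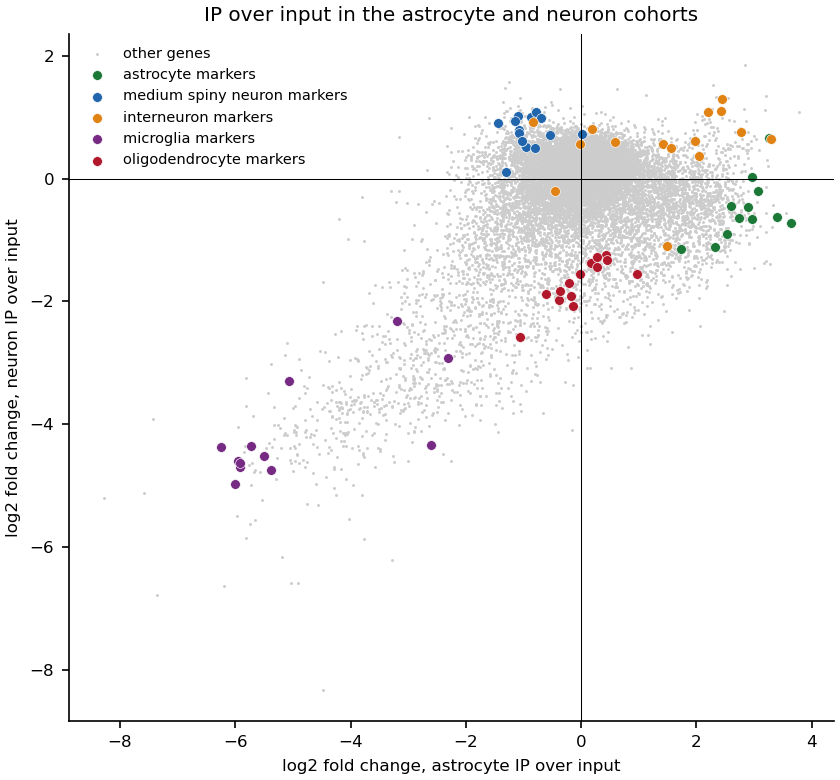
Log2 fold change of IP over input in the astrocyte cohort (x axis) and the neuron cohort (y axis), 1 point per gene tested in both, with the markers of 5 cell types in colour. Astrocyte markers lie to the right and mostly below 0, medium spiny neuron markers to the left and above 0, most interneuron markers to the right and above 0, and microglia markers at the lower left.

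The wild-type mice of the SAPAP3 cohort gave ratios much closer to those of the astrocyte cohort. Their IP was higher for 1703 of 15587 genes (10.9%) and lower for 1887 (12.1%). Of the 2042 genes higher and 1977 lower in the astrocyte IP that were tested in both, 1521 (74.5%) and 1400 (70.8%) were called in the same direction there. They were 90.6% of the 1679 higher and 81.2% of the 1724 lower genes of that cohort that were tested in both. Astrocyte markers had a median log2(FC) of 2.30 in it, the interferon list of 1.67 and interneuron markers of 1.08. The difference between the cohorts passed for 286 of 16032 genes as larger (1.78%) and 158 (0.986%) as smaller in the astrocyte cohort. Among the largest differences were those of genes of cortical projection neurons, such as *Slc30a3* (0.56 against -2.37), *Tbr1* (1.30 against -1.59) and *Neurod2* (0.77 against -2.06). Their levels spread widely between the mice of the astrocyte cohort. The highest IP value was 4.15 times the lowest for *Slc30a3*, 2.99 times for *Tbr1* and 4.09 times for *Neurod2*. *Slc30a3* and *Neurod2* were not called in the astrocyte IP, nor was *Tbr1* without the IP of mouse 2. Genes with a smaller ratio in the astrocyte cohort included the nuclear RNA *Scarna10* (-5.11 against -2.13) and osteopontin *Spp1* (-2.25 against 0.55). Without the input of replicate 1 of that cohort, 450 genes were larger and 244 smaller. The labels name another strain for the SAPAP3 cohort. The paper's methods give a later age at virus injection for the SAPAP3 knockout mice, without naming their wild types. Strain, age at injection and cohort cannot be told apart in the differences between the astrocyte and SAPAP3 cohorts.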

How the data were processed

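RNA was measured by RNA-seq in paired IP and input libraries of 4 mice, with 4 libraries per group in the comparison cohorts. The deposited table holds raw counts of reads per gene symbol, made by the authors with STAR and HTSeq on mm10 per the submitters' processing notes, without pooling. Versions, annotation and the treatment of strand and multimapping reads are not given in the sources used here, and labels and methods name different library kits and sequencers. Totals per library in the series ran from 23438112 to 84109800 counts, with 24697181 to 48389014 in the astrocyte cohort.

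Genes were filtered by filterByExpr and tested with edgeR 4.0.16 (quasi-likelihood, TMM, R 4.3.3) with Benjamini-Hochberg adjustment over all genes tested, in the 4 IP against the 4 inputs. Calls needed an adjusted p under 0.05 and a log2 fold change beyond 1 in either direction, the limits of the study. Differences from the other cohorts were interaction terms over 16 libraries. Each mouse gave 1 IP and 1 input per the labels. The main fit did not use this pairing, so its p-values measure the spread of levels between animals within each group. They do not measure how the IP over input ratio varied between mice. The mouse was a block in an alternative fit, and deviations from the group means correlated by 0.455 on average within a mouse and by -0.151 between mice over 11738 genes. In the neuron cohort IP and input share numbers in their titles, but the labels name different animals for them. There the deviations correlated by 0.656 on average between IP and input of the same number and by -0.202 otherwise, over 11516 genes. Whether libraries of the same number come from the same animal was not tested otherwise. Other alternatives were limma-voom 3.58.1, DESeq2 1.42.0, RLE scaling, scaling to ribosomal protein genes, no filter, a filter at 5 FPKM, no limit on the fold change, the hSyn1 libraries in the fit, and leaving out each library. On simulated data, calls were made at an adjusted p under 0.05 alone, without the limit on the fold change. There the main test recovered 91 of 100 genes changed by a log2 of 1 and 100 of 100 changed by 2. Of its 206 calls, 7.28% were false (17.3% with DESeq2). The simulation held far fewer changed genes than the data and no mouse effect, so it does not measure the error of the calls above.

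FPKM used library totals without TMM factors and merged RefSeq exons (GRCm38.p6), found for 99.2% of symbols. Genes named in the text were drawn from the cell type markers, the 12 largest changes in each direction with at least 10 CPM, the 15 highest FPKM in IP and input, for each functional list the 3 largest, the 3 smallest and the 2 most abundant members, and the 10 largest differences from each cohort. Not all of these genes are reported here. The members and the 60 gene lists were chosen with earlier results of these data known. Python 3.11.15, pandas 2.3.3, numpy 2.4.6, SciPy 1.17.1 and matplotlib 3.10.9 were used.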

Additional observations from a re-analysis of the deposited data

Results flagged for a closer look

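In 25 of 578 sets of 4 values examined, 1 library stood far from the other 3, and chance alone flags about 1 in 20 such sets. In the IP of mouse 4, *Aldh1l1* (602 CPM), *Cd14* (0.391), *Cldn5* (1.39) and *Ly86* (0.635) were high and *Cpe* (6282), *Ezr* (323) and *Plcd1* (27.8) low. In the IP of mouse 2, *Atp1b2* (326), *C1qb* (1.34), *Rarres2* (24.9), *Rgs5* (7.44), *Trpv4* (0.328) and *Vtn* (13.6) were low. In the IP of mouse 1, *Rbfox3* (122.5) and the summed postsynaptic density list (9383) were high. In the inputs, *Adora2a* (396), *Rps29* (213) and the summed serine and glycine list (729) were high in mouse 3, *Selplg* (44.0) and *Cbs* (19.04) high and *Lrp4* (41.6) low in mouse 4, *Kcnk2* (117), *Mobp* (274) and *Rgs5* (19.1) low in mouse 2, and *Doc2b* (119) low in mouse 1. For *Cldn5* the other 3 IP libraries held 0.774 to 0.827 CPM, and for *Cd14* 0.179 to 0.211.

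The IP over input ratio differed from that of the neuron cohort by the interaction term in 3135 genes as larger and 1354 as smaller. By name these included *Dmp1* (difference in log2(FC) 4.67), *Slc1a2* (4.36), *Nos1* (2.65) and *Chat* (1.13) as larger and *Spp1* (-3.08), *Pcp4* (-2.41) and *Pvalb* (-1.75) as smaller. Against the SAPAP3 wild types it was larger in 286 genes and smaller in 158, with *Slc30a3* (2.90), *Tbr1* (2.87) and *Neurod2* (2.81) among the first and *Scarna10* (-3.01) and *Spp1* (-2.82) among the second. The IP levels of *Slc30a3*, *Tbr1* and *Neurod2* spread 2.99- to 4.15-fold between the mice of the astrocyte cohort.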

How the results depend on the processing

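The 2072 genes higher and 2085 lower in the astrocyte IP became 2056 to 2177 and 2080 to 2224 on leaving out any 1 library. With the mouse as replicate block they were 2084 and 2089, of which 2067 and 2083 were called without it, and the block changed the call of no gene named in the text. Fits with limma-voom gave 2078 and 2093, and with DESeq2 2106 and 2046. Without the filter on low counts 2312 and 2704 of 19650 genes passed, and among genes above 5 FPKM 1004 and 696 of 8739. Other genes were tested in both cases, but calls of genes tested in both fits changed too. Of the lower genes, 2003 without the filter and 615 above 5 FPKM were also lower in the main fit. All 16 medium spiny neuron markers were tested above 5 FPKM, where 10 were lower in place of 8. Without a limit on the fold change 6071 were higher and 6377 lower. Scaling to ribosomal protein genes gave 9259 and 659, moved the difference from the neuron cohort from 3135 and 1354 genes to 5999 and 288, and that from the SAPAP3 cohort from 286 and 158 to 1350 and 46. Leaving out 1 library gave 3061 to 3222 and 1293 to 1388 for the neuron cohort, and 198 to 450 and 110 to 244 for the SAPAP3 cohort, the highest of these without its wild-type input replicate 1.

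Named genes changed sign in a called value under the ribosomal protein scaling alone, to a log2(FC) of 0.16 for *Cacna1h*, 0.019 for *Clic6*, 0.14 for *Ddc*, 0.077 for *Doc2b*, 0.11 for *Drd1a*, 0.17 for *Eef1b2*, 0.051 for *Eif4e3*, 0.13 for *Gabrd*, 1.17 for *Gad2*, 1.12 for *Got2*, 0.14 for *Mobp*, 0.16 for *Npas2*, 0.074 for *Scn4b* and 1.11 for *Snap25*. Among the small nucleolar and nuclear RNAs, 60 of 63 in place of 37 of 38 were lower when the hSyn1 libraries were in the fit and more of them passed the filter. Low counts limit genes such as *Slc22a6* and *Fosl1*. The p-values of the main fit measure the spread of levels between 4 mice of 1 cohort, without the pairing of IP and input.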
